A study of Mus musculus with 605 samples.

Results

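The markers of resident macrophages followed here are 10 genes chosen by name, Mrc1, Cbr2, Cd163, F13a1, Lyve1, Folr2, Adgre1, Csf1r, Mertk and Cd68, of 30959 gene symbols measured. They were read in the 2 tables of single myeloid cells from mouse dorsal skin at postnatal day 56 (P56), Myeloid WT P56 from wild-type skin and Myeloid Mut P56 from mutant skin of a hairy melanocytic nevus model, to set the number of cells with each marker beside its level in the cells that had it. Bulge stem cells of hair follicles (Bulge WT P30, Bulge WT P56 and Bulge Mut P56) and melanocytes (Melanocyte WT P56 and Melanocyte Mut P56) from dorsal skin served as the outgroup. The labels of the myeloid cells name the mutant only as Mut. In the study, mutant mice used for single bulge cells carried an activated Nras transgene under the tyrosinase (Tyr) promoter, which is active in melanocytes, and bulge donors of both genotypes had their epithelial nuclei labelled green. The allele and the sort of the myeloid cells are not given in the sources used here. Each genotype was 1 group of cells with no label for the animal, so each counted as 1 sample, genotype and preparation cannot be told apart, and no test was run. Intervals below are exact 95% Clopper-Pearson intervals for shares of cells, SDs are over cells, and both cover cells of 1 sample and not animals.

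Of 78 WT and 77 Mut myeloid cells, 73 and 72 were kept. Values are TPM, the abundance of a gene's transcripts scaled to a fixed total per cell, from which read depth cannot be had. The number of genes above 0 per cell stood in for it, with a median of 2946 in WT and 2945 in Mut cells. A gene was called present, and the cell positive, at a TPM of 1 or more. Most cells carried the general marks of myeloid cells. Ptprc, the CD45 antigen of blood cells, was present in 69 of 73 WT and 68 of 72 Mut cells, and Tyrobp, a signalling adaptor of myeloid receptors, in 69 and 64. Lyz2, the lysozyme gene often used to mark macrophages and monocytes, was present in only 10 WT and 9 Mut cells, at a mean of 16.4 and 5.66 TPM, whereas H2-Ab1, a chain of MHC class II, was present in 73 and 68. Dendritic cell genes were widespread as well, with Zbtb46 in 31 and 31 cells and Flt3 in 25 and 31. When each cell was given to the marker set with its highest mean, 4 WT and 8 Mut cells were highest for T or NK cell genes and the rest for pan-myeloid genes. The keratinocyte gene Krt14 was present in 0 WT and 5 Mut cells and the melanocyte gene Dct in 0 and 0.

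Resident macrophages are long-lived phagocytes of the dermis that take up dying cells, debris and proteins, and they depend on signals through the CSF1 receptor. A subset that lies along vessels is known for the mannose receptor, the folate receptor FOLR2 and the hyaluronan receptor LYVE1, together with CD163, the carbonyl reductase CBR2 and the clotting factor subunit F13A1. F4/80 (Adgre1), CSF1R and CD68 mark mononuclear phagocytes more broadly, and monocytes and some dendritic cells share them.

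Promoters are shown for the 5 members whose mean TPM was at least 2-fold lower in Mut cells, so that the sequence before their annotated starts can be read beside the values. Promoters from RefSeq (build GRCm38.p6) were read for 7 of the 10 members. Capitals mark GAGGAA, the core bound by PU.1, the macrophage transcription factor encoded by Spi1, in either orientation (TTCCTC where it reads on the other strand). The Mrc1 window is chr2:14229164-14229391 on the plus strand, that of Cbr2 chr11:120732115-120732271 on the minus strand and that of Cd163 chr6:124304401-124304650 on the plus strand. For F13a1 it is chr13:37050245-37050494 and for Folr2 chr7:101857195-101857440, both on the minus strand and both the window at the outer of 2 starts.
Mrc1: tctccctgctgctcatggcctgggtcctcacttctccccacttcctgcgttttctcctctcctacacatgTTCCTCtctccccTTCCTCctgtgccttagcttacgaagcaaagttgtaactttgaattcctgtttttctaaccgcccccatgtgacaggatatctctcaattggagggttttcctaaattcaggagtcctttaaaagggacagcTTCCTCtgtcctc
Cbr2: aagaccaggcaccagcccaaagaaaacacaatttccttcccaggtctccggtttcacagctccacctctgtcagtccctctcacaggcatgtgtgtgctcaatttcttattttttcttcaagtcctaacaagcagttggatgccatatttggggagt
Cd163: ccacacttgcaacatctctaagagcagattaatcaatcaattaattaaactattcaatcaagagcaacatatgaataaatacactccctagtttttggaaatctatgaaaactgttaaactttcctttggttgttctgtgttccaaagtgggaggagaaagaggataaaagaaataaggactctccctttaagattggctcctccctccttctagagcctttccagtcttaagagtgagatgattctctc
F13a1: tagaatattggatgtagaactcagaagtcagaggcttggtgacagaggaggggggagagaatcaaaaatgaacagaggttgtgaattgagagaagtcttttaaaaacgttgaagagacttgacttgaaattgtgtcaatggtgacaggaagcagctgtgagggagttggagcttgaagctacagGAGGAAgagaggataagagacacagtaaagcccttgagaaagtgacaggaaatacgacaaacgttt
Folr2: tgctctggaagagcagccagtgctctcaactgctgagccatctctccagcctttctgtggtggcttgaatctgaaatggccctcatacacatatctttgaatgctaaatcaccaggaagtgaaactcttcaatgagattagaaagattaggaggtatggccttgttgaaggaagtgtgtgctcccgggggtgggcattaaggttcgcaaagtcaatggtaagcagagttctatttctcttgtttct
The PU.1 core stood in 3 of the 7 members, with 3 copies in the Mrc1 window, 1 in F13a1 and 1 in Cd68. Among all 27025 genes with a promoter, 25.9% held it, as did 23.3% of all 32851 promoter windows of up to 250 bases. Windows of the members were cut to end before every annotated start, and those of all genes were not. The windows of Cbr2, Cd163, Folr2 and Mertk did not hold these letters.

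All 10 markers had a lower mean TPM in Mut than in WT myeloid cells, which 50.3% of 7683 genes also had. That background holds the genes present in at least 10% of cells of either genotype. In 5 of the 10 (Cbr2, F13a1, Folr2, Mrc1 and Cd163) the mean was at least 2-fold lower, against 11.1% of all genes, and 9.2% of genes were at least 2-fold higher. The share of positive cells was lower by at least 10 percentage points in 7 of the 10, against 12.1% of genes, and 8.73% of genes were higher by as much. That count fell to 5 among 56 cells per genotype paired on genes detected, where Cd163 and Csf1r fell short, against 11.8% of genes lower and 12.9% higher by as much. It was 6 without the cells highest for T or NK genes, where Csf1r fell short. In that setting 10.7% of genes were lower and 11.3% higher by as much. Of the members, 8 met the 10% limit, Folr2 only through the WT cells, and Lyve1 and Mertk did not.

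Cd68, Adgre1 and Csf1r, the broad markers, had the smallest folds of mean TPM among the 8 members present in both genotypes. In share of cells Adgre1 was lower by 21.1 percentage points, close to the 20.1 of Cd163. Cd68, a glycoprotein of the lysosome membrane, was present in 68 of 73 WT cells (93.2%, interval 84.7 to 97.7) and 61 of 72 Mut cells (84.7%, interval 74.3 to 92.1). Its TPM ran from 0 through a median of 727 to 6302 in WT and from 0 through 589 to 2916 in Mut cells, with means of 951 (SD 975) and 671 (SD 579). All Mut cells lay within the range of the WT cells, which reached further up, and the mean was 1.42-fold higher in WT. Adgre1, the adhesion receptor behind the F4/80 antigen, was present in 61 WT cells (83.6%, interval 73 to 91.2) and 45 Mut cells (62.5%, interval 50.3 to 73.6). Its median TPM was 103.6 in WT and 25.1 in Mut cells, its highest 889 and 830, and its mean 175 (SD 200) and 93.4 (SD 151). Csf1r, the receptor for the growth factors CSF1 and IL-34, was present in 53 WT cells (72.6%, interval 60.9 to 82.4) and 44 Mut cells (61.1%, interval 48.9 to 72.4). Its median was 118 and 36.1 TPM and its mean 214 (SD 270) and 128 (SD 271), while the highest cell was a Mut cell at 1418 TPM against 986 in WT. For all 3 of these genes the intervals of the shares overlapped.

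The endocytic receptors were further apart in mean TPM. Mrc1, the mannose receptor CD206, was present in 56 of 73 WT cells (76.7%, interval 65.4 to 85.8) and 37 of 72 Mut cells (51.4%, interval 39.3 to 63.4). These intervals did not overlap, but the share of all genes with intervals apart is not given here. The TPM of Mrc1 reached 2268 in WT, with a median of 136 and a mean of 307 (SD 478), and 957 in Mut, with a median of 5.4 and a mean of 87.4 (SD 163). Among positive cells alone the median was 183 TPM in WT and 109 in Mut. Cd163, the scavenger receptor for haemoglobin bound to haptoglobin, was present in 39 WT cells (53.4%, interval 41.4 to 65.2) and 24 Mut cells (33.3%, interval 22.7 to 45.4). Positive cells had medians of 78.9 and 65.9 TPM and means of 113 and 77.5, and the mean over all cells was 60.6 (SD 99.95) against 25.8 (SD 48.96). The intervals of its shares overlapped.

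Folr2, the folate receptor beta, was high in each WT cell that had it. It was present in 16 WT cells (21.9%, interval 13.1 to 33.1), at 252 to 2464 TPM with a median of 1266, and in 4 Mut cells (5.56%, interval 1.53 to 13.6). Those 4 stood at 65.5, 78.2, 1816 and 2620 TPM, so that 2 were under the lowest positive WT cell and 1 was above the highest. The mean was 295 TPM (SD 636) in WT and 63.6 (SD 373) in Mut, and 57.2% of the Mut sum came from 1 cell. The intervals of the Folr2 shares overlapped narrowly. Lyve1, the hyaluronan receptor, was present in 3 WT cells, at up to 130 TPM, and was listed at 0 in all 72 Mut cells, for which the exact interval of the share of positive cells reaches 4.99%. No fold was taken for Lyve1, and its WT share of 4.11% lay under that limit.

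Cbr2 and F13a1, which encode enzymes, had the highest folds of mean TPM. On the log scale, as a difference in mean log2(TPM scaled to 10000 per cell + 1), Cbr2 was again first at -1.24, but F13a1 at -0.46 came after Mrc1 at -0.83 and Folr2 at -0.70. Cbr2, a carbonyl reductase, was present in 25 WT cells (34.2%, interval 23.5 to 46.3) and 8 Mut cells (11.1%, interval 4.92 to 20.7), and these intervals did not overlap. In positive WT cells it ran from 154 through a median of 1567 to 6065 TPM, and in positive Mut cells from 8.5 through 109 to 2513. Its mean was 738 (SD 1344) against 74.4 (SD 359), a 9.92-fold difference, and 1 cell gave 46.9% of the Mut sum. F13a1, the catalytic subunit of clotting factor XIII, was present in 27 WT cells (37%, interval 26 to 49.1) and 10 Mut cells (13.9%, interval 6.87 to 24.1), again without overlap. The share of all genes with intervals apart, as for Mrc1, Cbr2 and F13a1, is not given here. The median of F13a1 in positive cells was 184 TPM in WT and 66.7 in Mut, its highest cell 738 and 305, and its mean 82.5 (SD 156) and 14.1 (SD 46.8). Mertk, the receptor that recognizes dying cells through bridging proteins such as GAS6, was present in 5 WT cells, at 4.8 to 103 TPM, and listed at 0 in all Mut cells, with the same upper limit of 4.99%. The WT share of Mertk was 6.85% (interval 2.26 to 15.3).

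**Figure D1:**
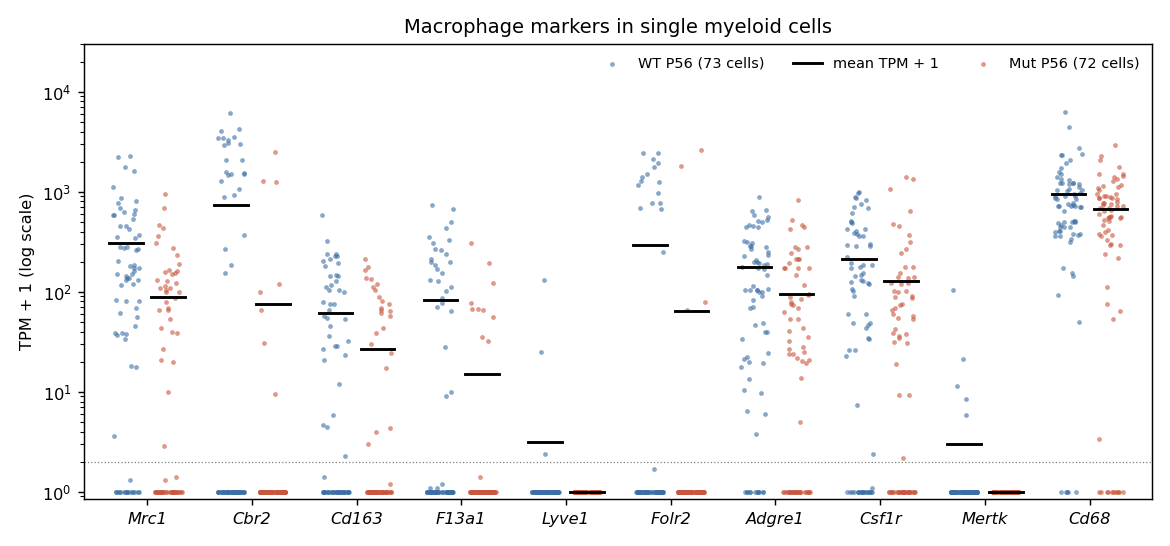
TPM + 1 of each marker (log axis) in every kept myeloid cell, WT in blue and Mut in red, with a black bar at the mean TPM + 1 and a dotted line at the detection limit of TPM 1. Cbr2 and Folr2 show a dense group of high WT cells, up to 6065 and 2464 TPM, that few Mut cells share, whereas for Cd68 the Mut cells, up to 2916 TPM, are spread over the lower part of the range of the WT cells, which reach 6302.

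A lower mean can come from fewer positive cells or from less in each of them, and the log2 ratio of means is the sum of the log2 ratio of the shares and that of the mean in positive cells. For Mrc1 the ratio of Mut to WT of -1.81 divided into -0.58 from the share and -1.23 from the level. Cbr2 divided almost evenly, with -3.31 into -1.62 and -1.69, and so did Cd163, with -1.23 into -0.68 and -0.55. F13a1 had -2.55, of which -1.41 came from the share and -1.13 from the level. For Folr2 nearly all lay in the share, -1.98 of -2.21. The broad markers had more in the level than in the share, namely -0.49 of -0.91 for Adgre1, -0.49 of -0.74 for Csf1r and -0.37 of -0.50 for Cd68. Positive Mut cells had the lower mean in each of the 7 members with at least 5 positive cells per genotype, against 49.3% of 7749 such genes, and the mean was at least 2-fold lower in 3 of the 10 (Cbr2, Mrc1 and F13a1), against 4.21% of genes. Over those 7 members the median log2 ratio was -0.58 for the share and -0.55 for the level, and over all such genes it was 0.0 and 0.01. Share and level thus both differed, and the split by positive cells could not place either in a given kind of cell.

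Cells with many of the markers at once were rarer among Mut cells. WT cells had a median of 5 and a mean of 4.84 (SD 2.33) of the 10 markers, and Mut cells a median of 3.5 and a mean of 3.24 (SD 2.07). At least 5 markers were present in 39 of 73 WT cells (53.4%, interval 41.4 to 65.2) and 26 of 72 Mut cells (36.1%, interval 25.1 to 48.3). No marker at all was found in 4 WT and 11 Mut cells. At the upper end, 19 WT cells (26%, interval 16.5 to 37.6) and 2 Mut cells (2.78%, interval 0.338 to 9.68) had 7 or more. In between, 37 WT and 34 Mut cells had 4 to 6 markers, and at the lower end 17 (23.3%, interval 14.2 to 34.6) and 36 (50%, interval 38 to 62) had 0 to 3. These bands were set after the distribution was seen. The cut at 5 markers is a cut in a count and not a border between cell types, since 17 WT and 10 Mut cells had exactly 4 markers and 15 and 19 exactly 5. Number of markers and number of genes detected were weakly related, with a Spearman correlation of 0.22 over 73 WT cells and 0.11 over 72 Mut cells. Among 56 cells per genotype paired on genes detected, 50% of WT and 41.1% of Mut cells had 5 or more markers, a smaller gap than over all cells. Within the WT plate, 51.3% of 39 cells from rows A to D and 55.9% of 34 cells from rows E to H had 5 or more markers, and 25.6% and 26.5% had 7 or more, while the mean of Cbr2 was 544 and 960.03 TPM. The Mut columns carry no well, so no such comparison was made for them.

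**Figure D2:**
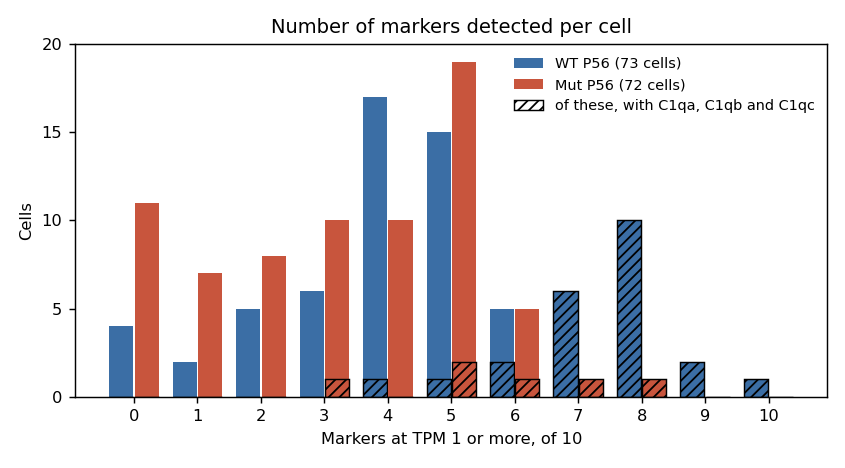
Number of cells (vertical axis) by how many of the 10 markers each had at TPM 1 or more, WT in blue and Mut in red, with hatched parts for cells that had C1qa, C1qb and C1qc. The WT distribution has a second rise at 7 and 8 markers, all of it hatched, where Mut has 2 cells.

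The 3 bands had different genes beside the markers. Cells with 7 or more markers in WT averaged 46204 TPM of Ccl8, 9410 of Pf4 and 5024 of C1qb, against 42.7, 388 and 448 in the cells with 4 to 6. Both Mut cells with 7 or more markers had Pf4 and C1qb, at means of 5024 and 7013 TPM. None of the 19 WT cells of this band had Ccr7, the chemokine receptor of dendritic cells on their way to lymph nodes, or Itgax, and 1 had Zbtb46. Cd209a, also on the dendritic cell list, was present in 11 of the 19, at a mean of 1098 TPM, and in both Mut cells of the band. In WT cells with 4 to 6 markers Cd209a was present in 28 of 37, and in those with 0 to 3 in 8 of 17. In WT cells with 0 to 3 markers Ccr7 was present in 6 of 17 and Zbtb46 in 12, and in Mut cells of that band in 11 and 18 of 36. With 4 to 6 markers, Ccr7 was present in 9 and Zbtb46 in 18 of 37 WT cells, and in 16 and 13 of 34 Mut cells, so that among Mut cells Ccr7 was more frequent in this band than in the one with fewer markers. H2-Ab1 was present in 17 of those 17 WT and 32 of those 36 Mut cells. The NK and T cell gene Il2rb was found only among cells with 0 to 3 markers, in 3 WT and 10 Mut cells.

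Both Mut cells with 7 or more markers stood above the WT mean of their band in Folr2 and under it in Cbr2, Mrc1 and F13a1. The first stood at 1247 TPM of Cbr2, 1816 of Folr2, 274 of Mrc1 and 34.1 of F13a1, with 2048 genes detected. The second stood at 2513 TPM of Cbr2, 2620 of Folr2, 109 of Mrc1 and 77 of F13a1, with 2910 genes detected. WT cells of the band averaged 2652 TPM of Cbr2, 1132 of Folr2, 900 of Mrc1 and 262 of F13a1, and had 1807 to 4682 genes detected. With 2 Mut cells, no statement on their level can rest on more than these values.

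Folr2, Cbr2 and F13a1 were often found in the same WT cells. All 16 WT cells with Folr2 also had Cbr2, F13a1, Mrc1, Adgre1, Csf1r and Cd68, whereas 2 of the 4 Mut cells with Folr2 had Cbr2 and F13a1. Of 25 WT cells with Cbr2, 23 had F13a1, and of 8 such Mut cells, 4 did. All 5 WT cells with Mertk were among those with Folr2, whereas of the 3 with Lyve1, 1 had Folr2 and 2 had each of Mrc1, Cbr2 and F13a1. Cd163 was an exception, since 13 of 39 WT cells with Cd163 had Cbr2 and 36 had Mrc1, and in Mut cells 3 and 22 of 24 did. The Spearman correlation of Cd163 with Cbr2 over 73 WT cells was 0.10, that of F13a1 with Cbr2 was 0.85 and that of Folr2 with Cbr2 was 0.82, all within cells of 1 sample with 1797 to 4901 genes detected. In Mut cells the same 3 values were 0.05, 0.38 and 0.34. Cd68, Adgre1 and Csf1r occurred together in 47 WT cells (64.4%, interval 52.3 to 75.3) and 35 Mut cells (48.6%, interval 36.7 to 60.7). Within these cells Mrc1 was present in 45 of 47 WT and 28 of 35 Mut cells and Cd163 in 28 and 18, while Cbr2 was present in 24 and 7, F13a1 in 26 and 9, and Folr2 in 16 and 3. For Cbr2 these were 51.1% of WT (interval 36.1 to 65.9) and 20% of Mut cells (interval 8.44 to 36.9), and these intervals overlapped. Cd68 with no other marker was found in 1 WT and 7 Mut cells.

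**Figure D3:**
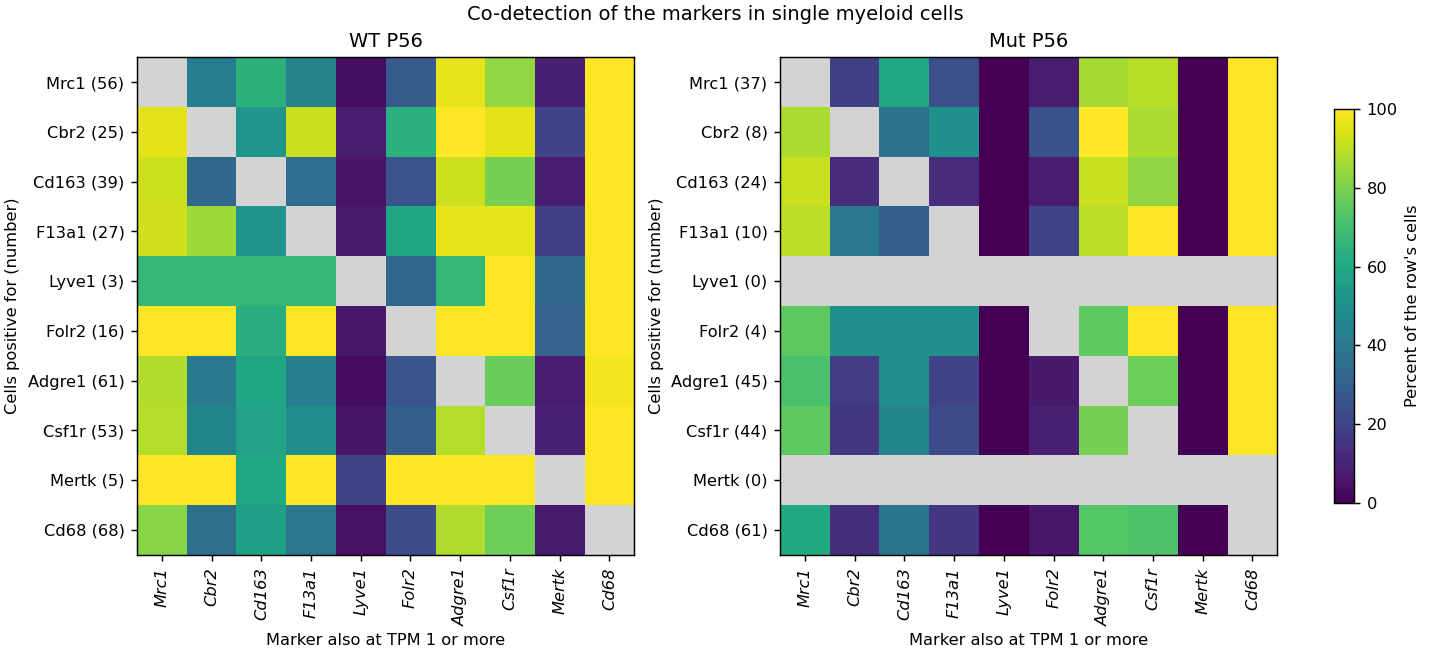
For each marker (rows, with the number of positive cells), the percent of its positive cells that also had each other marker (columns), in WT and Mut myeloid cells, with grey where there is no cell or the marker itself. The rows of Folr2, Cbr2 and F13a1 are bright against one another in WT and dimmer in Mut, where Folr2 rests on 4 cells, and Lyve1 and Mertk have no Mut cell.

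To read a marker in cells chosen without it, cells with at least 5 of the other 9 markers were taken for each gene in turn. Mrc1 averaged 751 TPM in 24 such WT cells and 180 in 7 such Mut cells, and all of them were positive. Cbr2 averaged 1409 TPM in 38 WT and 217 in 24 Mut cells, with 23 and 5 of them positive (60.5%, interval 43.4 to 76, and 20.8%, interval 7.13 to 42.2). F13a1 averaged 149 TPM in 38 WT and 24.9 in 22 Mut cells and was present in 24 and 5 of them. Folr2 averaged 551 against 173 TPM in 39 and 26 cells, present in 16 and 3. The broad markers were closer, with 332 against 273 TPM for Adgre1 in 24 and 8 cells, and 455 against 307 for Csf1r. The difference in mean over all cells was then divided into a part from the number of such cells, a part from the level inside them and a part from the level in the other cells. The number of cells made up 40.2% of it for Mrc1, 22.7% for Cbr2, 24.2% for F13a1, 27.1% for Folr2, 58.1% for Adgre1, 71% for Csf1r and 50.1% for Cd68. The level inside made up 55.4%, 76.7%, 74.8%, 73.3%, 16.1%, 38% and 52.1% in the same order. Here the level is the mean over all such cells, positive or not, so it also holds the share of positive cells. For Folr2 the positive cells among them averaged 1344 TPM in WT and 1500.5 in Mut. For Cd163 the cells outside made up 48.1%, the largest of its 3 parts.

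That division turned with the cells taken as macrophages. C1qa, C1qb and C1qc, which encode the chains of complement C1q and are known as macrophage products, were not among the markers, and after the data were seen the cells with all 3 were taken as an alternative. Such cells numbered 23 in WT (31.5%, interval 21.1 to 43.4) and 6 in Mut (8.33%, interval 3.12 to 17.3), and these intervals did not overlap. They held all 19 WT and both Mut cells with 7 or more markers. They had a median of 8 and 5.5 markers, against 4 and 3 in the remaining cells. With this choice the number of cells made up 53.2% of the difference in mean for Mrc1, 53.1% for Cbr2, 53.1% for F13a1, 83.9% for Folr2, 76.1% for Adgre1, 99.9% for Csf1r and 76.1% for Cd68, more than with the count of markers in each of these 7. The level inside, again a mean over positive and negative cells together, made up 35.9%, 42.3%, 37.9%, 16.9%, 10.8%, 10.6% and 14.2%.

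Inside the C1q-positive cells the medians of Cd68 and Adgre1 were higher in Mut and that of Csf1r higher in WT. Cd68 had a median of 1234 TPM (range 335 to 6302) in 23 WT and 1622 TPM (range 292 to 2264) in 6 Mut cells. Adgre1 was present in all 23 WT cells and in 5 of the 6 Mut cells. Its medians were 317 and 428 TPM over positive cells, and 317 and 300 TPM over all C1q-positive cells. Csf1r was present in every one, with medians of 420 and 226 TPM. Mrc1 was also present in every one, from 37 through 604 to 2268 TPM in WT and from 109 through 214 to 957 in Mut, so that the ranges overlapped and the median was higher in WT. Cbr2 was present in 22 WT cells (95.7%, interval 78.1 to 99.9) and 4 Mut cells (66.7%, interval 22.3 to 95.7), F13a1 in 21 and 4, Folr2 in 16 and 2, and Cd163 in 13 and 1. With 6 Mut cells these intervals were wide, and the differences in share inside the C1q-positive cells were not tested. The 6 had a median of 2332 genes detected against 2981 in the 23 WT cells, and the part of that gap in the shares was not tested.

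Outside the C1q-positive cells, 50 WT and 66 Mut cells remained. Cbr2 was present in 3 WT (6%, interval 1.25 to 16.5) and 4 Mut cells (6.06%, interval 1.68 to 14.8), and F13a1 in 6 and 6 (12% and 9.09%). Folr2 was present in 0 of 50 and 2 of 66, and Mertk in neither. Csf1r was present in 30 and 38 cells, at means of 88.3 and 99.5 TPM. Mrc1 was present in 33 WT (66%, interval 51.2 to 78.8) and 31 Mut cells (46.97%, interval 34.6 to 59.7), Cd163 in 26 (52%) and 23 (34.8%), and Adgre1 in 38 (76%) and 40 (60.6%). For these 3 the WT share was the higher one, but the intervals overlapped.

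**Figure D4:**
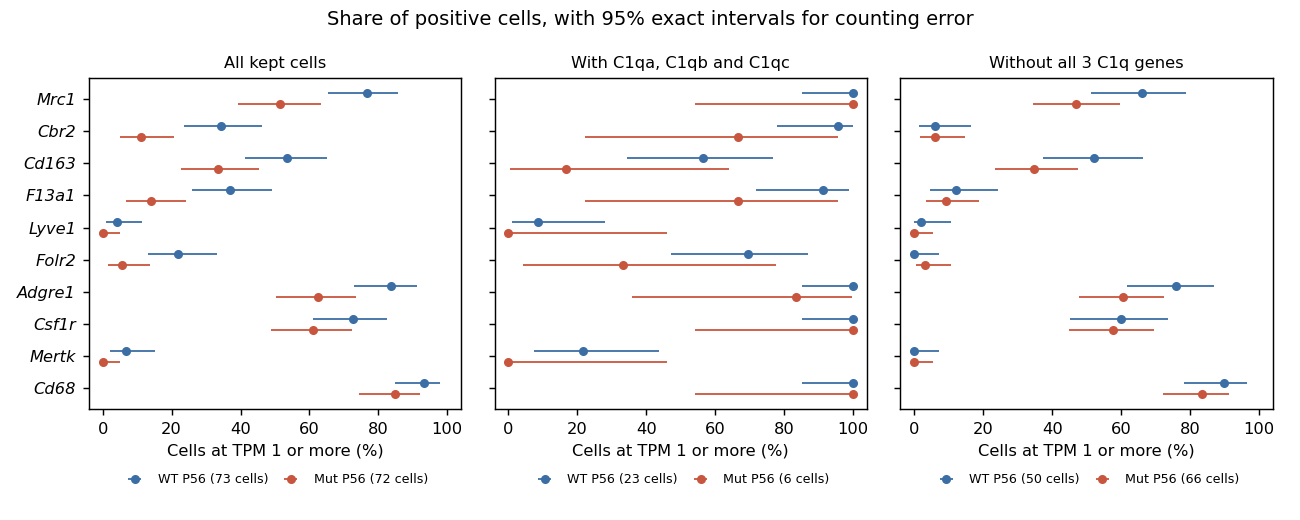
Percent of cells at TPM 1 or more for each marker, with exact 95% intervals, in all kept myeloid cells (left), in cells with C1qa, C1qb and C1qc (middle) and in the other cells (right), WT in blue and Mut in red. On the left the intervals of Mrc1, Cbr2 and F13a1 lie apart between genotypes, while those of Folr2 overlap narrowly. The share of all genes with intervals apart is not given. On the right Cbr2, F13a1 and Folr2 lie close together, and Mrc1, Cd163 and Adgre1 are still higher in WT with overlapping intervals.

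Other genes known from resident macrophages went the same way. Of a list of 23 such genes outside the 10 markers, 19 were present in at least 10% of cells of either genotype, and all 19 had a lower mean of log2(scaled TPM + 1) in Mut, with a median difference of -0.52 against 0.00084 over all 7683 genes, of which 49.5% were lower on this scale. Of the 19, 8 met the 10% limit through the WT cells only, so that their direction was fixed by it. With the limit set over the 145 cells together, a choice made after the data were seen, 16 genes remained and all 16 were lower, against 49.5% of 7182 genes. Ccl8, a chemokine, averaged 12048 TPM in WT and 1200 in Mut, and Pf4, a chemokine of platelets that macrophages also make, 2649 and 387. The platelet gene Ppbp was present in 2 and 1 cells. Ccl7, a second chemokine, averaged 1666 and 403 TPM and Sepp1, the plasma carrier of selenium, 1677 and 602. Of 13 genes for C1q, lysosome and lipid handling, 11 were lower on the same log scale, with a median difference of -0.33, and 10 of 12 with the limit over all cells. C1qb averaged 1535 and 488 TPM, C1qc 884 and 172, C1qa 824 and 160.3 and Apoe, a lipid carrier, 3021 and 1099, while the 2 that were not lower, Ctsd and Npc2 of the lysosome, averaged 234 and 248, and 345 and 376 TPM.

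The pathways of 2 of the receptors had median differences near 0 on the log scale, though several uptake genes were at least 2-fold lower by mean TPM. In the list of the CSF1 receptor pathway, 6 of 12 genes were lower and 6 higher, with a median difference of -0.01. By mean TPM 2 of the 12 were at least 2-fold lower and 1 at least 2-fold higher. Spi1, which encodes PU.1, was present in 68 WT and 61 Mut cells at means of 331 and 399 TPM, Tyrobp averaged 2821 and 2319, and Irf8, a factor of monocytes and dendritic cells, 64.4 and 254. The ligand genes Csf1 and Il34 were near or at 0 in these cells. Of 13 genes for the uptake of dying cells, 9 were lower, with a median difference of -0.09, and 3 of the 13 met the 10% limit through WT cells only and 1 through Mut cells only. By mean TPM 5 of the 13 were at least 2-fold lower and 0 at least 2-fold higher, against 11.1% and 9.2% of all genes. In share of cells 5 were lower by at least 10 percentage points and 0 higher, against 12.1% and 8.73% of all genes. Stab1, a scavenger receptor, averaged 146 TPM in WT and 5.03 in Mut. Both listed ligands of MERTK were lower, Gas6 at 98.2 and 19 TPM and Pros1 at 53.2 and 18.9. Of 6 scavenger receptors outside the markers, 4 were lower, with a median of -0.08.

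Lists for other myeloid cells went in both directions, beside the 49.5% of all genes that were lower on the log scale. Of 9 genes for Fc, complement and toll-like receptors 7 were lower, with a median difference of -0.10, among them Fcer1g, the shared signalling chain of Fc receptors, at means of 2971 and 1980 TPM. Of 8 genes of inflammatory macrophages 4 were lower and 4 higher, with a median of -0.03. Of 7 monocyte genes 5 were higher in Mut, with a median difference of 0.18, but 3 of these 5 (Plac8, F10 and Thbs1) met the 10% limit through Mut cells only. The chemokine receptor Ccr2 averaged 48.2 TPM in WT and 68.4 in Mut, while the calcium-binding gene S100a4 went the other way with 7220 and 5580. Of 5 genes of migratory dendritic cells 4 were higher, with a median of 0.19, and 1 of the 4, Socs2, met the limit through Mut cells only. Among them Ccr7 was present in 15 WT and 27 Mut cells, at means of 392 and 1107 TPM. The summed level of the 8 listed genes ran from 0 to 22345 TPM per WT cell, with a median of 85, and from 0 to 24739 per Mut cell, with a median of 208. The 10 dendritic cell genes were split, 4 lower and 6 higher, with a median of 0.03. On the log scale 6 of 6 MHC class II genes were lower, with a median of -0.42. By mean TPM 4 of them were lower and 2 higher, and none by 2-fold or more. H2-Ab1 had a mean of 23886 TPM in WT and 22420 in Mut, but a median of 23108 and 25861. The summed level of the 6 had a median of 62075 TPM per WT cell and 65726 per Mut cell. Of 9 T or NK genes measured, Thy1 and Il2rb met the 10% limit, both through Mut cells only, with 5 WT and 13 Mut cells positive for Thy1 and 3 and 10 for Il2rb. The summed level of the 9 had a median of 0 in both genotypes and reached 10584 TPM in WT and 6567 in Mut cells. Without the 4 WT and 8 Mut cells highest for those genes, 56.5% of WT and 40.6% of Mut cells had 5 or more markers, so that the gap was of like size. The part of migratory dendritic cells in the lower shares was not tested.

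Genes that varied most like the markers over all 145 cells were found by Spearman correlation with the mean log2(scaled TPM + 1) of the 10, among 4464 genes present in at least 20% of cells. Ctsb, the lysosomal protease cathepsin B, came first at 0.76, with 0.83 within WT and 0.69 within Mut cells. C5ar1, Ctsc, Sepp1, Fcer1g, C1qc, Pf4, Rnase4, Apoe, C1qa and Pltp followed at 0.69 to 0.63. Cbr2 was most like Pf4 (0.86), C1qc (0.83) and C1qa (0.79), and F13a1 had the same 3 neighbours at 0.72 to 0.71. Folr2 was nearest to Gas6 at 0.76. Cd163 stood apart from these, with the lectin genes Cd209a (0.52), Mgl2 (0.50) and Cd209d (0.50) as its nearest. Mrc1 and Adgre1 were most like Sepp1, and Csf1r and Cd68 most like Ctsb. All these values are over the cells of 2 samples, 1 per genotype.

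In the outgroup most markers were scarce, as the shares in all 7 groups show. Mrc1, Cd163, F13a1, Lyve1, Folr2, Adgre1 and Csf1r were present in 0 to 4.82% of bulge cells and melanocytes. Cd68 was present in 2.38% of Bulge WT P30, 16.9% of Bulge WT P56 and 14.6% of Bulge Mut P56 cells, at means of 1.64, 9.40 and 5.83 TPM, far under the 951 and 671 TPM of myeloid cells. Mertk was more frequent in bulge than in myeloid cells at P56, with 27.7% (interval 18.4 to 38.6) in WT and 18% (interval 10.6 to 27.5) in Mut bulge cells, against 6.85% and 0 of myeloid cells. It was rare in Bulge WT P30 cells, at 2.38%.

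Cbr2, by contrast, was widespread in bulge cells. It was present in 47 of 84 Bulge WT P30 cells (56.0%, interval 44.7 to 66.8), 51 of 83 Bulge WT P56 cells (61.4%, interval 50.1 to 71.9) and 84 of 89 Bulge Mut P56 cells (94.4%, interval 87.4 to 98.2), and in 3.70% of WT and 4.76% of Mut melanocytes. Its mean in bulge cells was 163 TPM (SD 218), 176 (SD 221) and 529 (SD 429) in the same order. Mut bulge cells at P56 thus had the higher share and mean, the opposite order to that of myeloid cells. In positive WT cells the median was 266 TPM in the bulge at P56 and 1567 in myeloid cells.

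**Figure D5:**
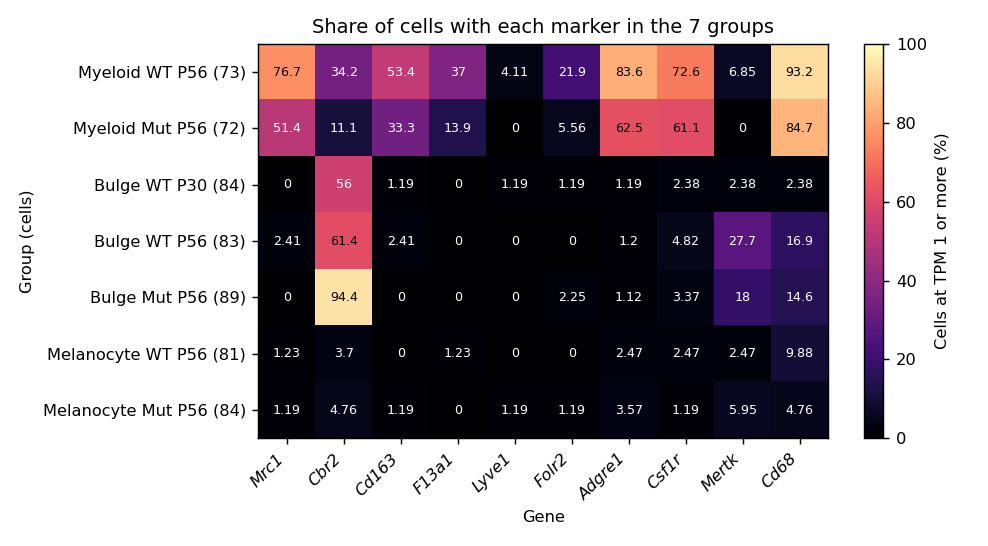
Percent of cells at TPM 1 or more for each marker (columns) in the 7 groups (rows, with the number of kept cells), printed in each square and shaded from 0 to 100. The myeloid rows are bright for Cd68, Adgre1, Mrc1 and Csf1r, and outside them only Cbr2 in bulge cells exceeds 50%.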

How the data were processed

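Cells were caught singly in microfluidic chambers, and the authors dropped chambers seen to be empty or to hold several cells. No doublet caller was run. The authors mapped reads with STAR (version 2.4.2 in the submitters' processing notes) to mouse build GRCm38 (mm10) and estimated gene abundance with RSEM. The deposited tables hold TPM, although the methods speak of FPKM at that step. There were 7 tables with a column for each cell, and read depth cannot be had from them.

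A single WT myeloid column had no matching label and stayed out. The 77 Mut myeloid columns carry no well and entered by group only. Symbols with several identifiers (38 of 30959) were averaged, and symbols that had turned into dates were restored by identifier. Kept cells had TPM summing to 750000 or more, mitochondrial genes at 20% or less and 1000 or more genes above 0 (2000 to 7000 in bulge cells). The log scale was log2(TPM scaled to 10000 per cell + 1).

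All 10 markers are described. Other genes named are those most like them by Spearman correlation and, in each list, up to 4 with the greatest differences on the log scale. Ppbp, Ctsd, Npc2, Plac8, F10, Thy1, Csf1, Il34 and H2-Ab1 and the genes given for the bands were named after their values were seen. Markers and lists were chosen with earlier results of these data known, and the C1q cut and the bands after the values were seen. Sepp1 is the older symbol of Selenop, and 4 listed genes have no row. A gene of these lists and a promoter motif are not reported here. With 1 sample per group no test was run. Counting steps were tested on the kept WT myeloid cells after known changes in share or level had been put into chosen genes. Alternatives changed the detection limit, the filters, the cells, the cuts and the averages. Work was done in Python 3.11.15 with SciPy 1.17.1, NumPy 2.4.6, pandas 2.3.3 and matplotlib 3.10.9.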

Additional observations from a re-analysis of the deposited data

Results flagged for a closer look

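Cbr2 had opposite differences in 2 lineages under the same contrast of Mut against WT at P56. The log2 ratio of mean TPM was -3.31 in myeloid cells (738 TPM in 73 WT and 74.4 TPM in 72 Mut cells) and 1.58 in bulge cells (176 TPM in 83 WT and 529 TPM in 89 Mut cells). Each value compares 1 sample with 1 sample, and the difference between the lineages was not tested.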

How the results depend on the processing

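The share of cells with several markers moved with the cut. With at least 4 of 10 markers it was 76.7% of WT and 50% of Mut cells, and with at least 6 it was 32.9% and 9.72%. Among cells with C1qa, C1qb and C1qc, an alternative chosen after seeing the data, 95.7% of WT and 83.3% of Mut cells had at least 5, and 1 member, Mrc1, had a level in positive cells at least 2-fold lower in Mut, where 6 Mut cells remained. A difference of at least 0.5 in mean log2(scaled TPM + 1), in place of a 2-fold mean TPM, was met by 3 members (Cbr2, Mrc1 and Folr2) and by 0.742% of genes. With the 10% limit dropped and genes kept where both genotypes had a mean above 0, 17.5% of 12170 genes had a mean at least 2-fold lower in Mut. Without the highest cell of each genotype the log2 ratio of mean TPM was -4.05 for Cbr2 and -3.26 for Folr2. In cells matched on genes detected the difference in share of positive cells shrank to -8.93 percentage points for Cd163, -10.7 for Adgre1, -5.36 for Csf1r and -3.57 for Cd68, and without T or NK cells it was -3.24 for Cd68. No recomputed single-gene value was above 0, and apart from these 5 share differences and the 2 log2 ratios without the highest cell, each was within 1.5 times its reported value, under other detection limits, without filters on cells, without T or NK cells, in matched cells, without the highest cell of each gene and with TPM rescaled. Each genotype is 1 sample, and Mut rests on 8 or fewer positive cells for Cbr2, Folr2, Lyve1 and Mertk, so these data limit any statement to the cells measured.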
